A study of Mus musculus with 6 samples.

Results

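The matrix metalloproteinase, ADAMTS and TIMP genes were followed in immortalized mouse embryonic fibroblasts (MEFs), in every row of the deposited table whose symbol is Mmp, Timp, Adamts or Adamtsl and a number, with or without a letter. The rule took 46 of the 26231 genes, namely 20 Mmp, 18 Adamts, 5 Adamtsl and 3 Timp genes. RNA was sequenced from 6 libraries, 3 of a line labelled MEF WT (control) and 3 of a line labelled MEF Nf2 KO. Both lines are FVB cells from embryos with floxed Nf2 alleles. The embryos were of approximately 14 days by the labels, where the study's text gives an earlier day, and both lines were immortalized with the large T antigen of SV40. The control line received a GFP lentivirus with a CMV promoter and the other line a lentivirus with CMV-driven Cre recombinase and GFP. The labels give 10% fetal bovine serum for both lines, and the cells spent 24 h without serum before RNA was taken. The comparison asks what differs between MEFs labelled as lacking Merlin, the Nf2 product, and MEFs that keep it. Each group is a single line, so the loss of Nf2 and any other divergence of the 2 lines cannot be told apart. The labels do not say that replicates were separate cultures, so p-values measure the spread between these libraries, which may be technical.

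Matrix metalloproteinases (MMPs) are zinc endopeptidases, mostly secreted as inactive proenzymes, that cleave collagens, fibronectin, proteoglycans and cell surface proteins. The ADAMTS proteases are secreted relatives with thrombospondin repeats that cut large proteoglycans or trim procollagens, while ADAMTS-like proteins keep the repeats and lack the protease domain. Tissue inhibitors of metalloproteinases (TIMPs) block MMPs, TIMP3 also blocks several ADAMTS enzymes, and TIMP2 is needed together with MMP14 to activate MMP2 at the surface of fibroblasts. Many Mmp promoters carry an AP-1 site, which binds Fos and Jun proteins.

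Values are RPKM, that is, read counts divided by exon length and by the depth of the library, and a value of 1 RPKM or more in at least 3 libraries was required for testing. Depth worked out from the values ran from 13453616 to 61186582 reads in the control libraries and from 18071352 to 73051737 in the libraries labelled Nf2 KO, and replicate 3, marked 2018 in the labels, was the deepest in each line. The Nf2 transcript was at 14.3, 13.7 and 13.1 RPKM in the control libraries and at 15.4, 12.9 and 13.9 RPKM in those labelled Nf2 KO, a log2 fold change of 0.03 (SE 0.10, limma adjusted p = 0.987). The whole-gene value therefore did not separate the lines, and whether it covers the excised part is not given in the sources used here, so the second line is called by its label throughout. Of 9 fibroblast markers, 6 were over 1 RPKM in every library, and all 9 together summed to 1378 to 2063 RPKM in the control and 1130 to 1581 RPKM in the libraries labelled Nf2 KO. Macrophage markers summed to 7.10 to 8.71 and 6.02 to 7.51 RPKM, with 7 of the 8 genes under 1 RPKM everywhere, and neutrophil markers to at most 0.171 RPKM. Epithelial markers (21.7 to 39.8 against 10.7 to 27.9 RPKM), endothelial markers (1.46 to 3.89 against 1.50 to 4.45 RPKM) and chondrocyte markers (8.28 to 14.7 against 8.09 to 20.8 RPKM) came mainly from Krt19, Kdr and Sox9. Of the 8 fibroblast markers tested, 4 were lower with the block (4.54% of all tested genes), Pdgfra (log2 fold change -2.35, limma adjusted p = 0.0329 without the block and 0.00366 with it), Thy1, Dcn and Col3a1. Pdgfra and Dcn passed the level filter only through the control libraries. Of the markers of other cell types, Cd68, Krt19, Kdr, Sox9 and Col2a1 could be tested and none of these passed. Among those under the filter, Csf1r, Itgam and Cdh5 were lower in every library labelled Nf2 KO than in any control library, at 0.162 RPKM or less. Of all genes under the filter, 5.34% were apart in that direction. The remaining markers of other cell types under the filter overlapped, with means on both sides of the control. The part of all these markers in the results was not tested. In bulk RNA, fewer cells that make a transcript and less transcript per cell cannot be told apart.

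In the libraries labelled Nf2 KO, the stromelysin Mmp3 and the procollagen N-proteinase Adamts2 were lower, and these were the 2 members of 24 tested that passed the limma test across all genes (adjusted p under 0.05), where 1.06% of all 11067 tested genes passed and 0.578% passed in that direction. No member was higher by that test, against 0.479% of all genes. At an unadjusted p under 0.05 were 9 of the 24, against 9.91% of all tested genes. Same-numbered replicates of the 2 lines deviated together from their line means, and once that number entered the fit as a block, 10 of the 24 passed, against 7.53% of all genes. Of these, 4 were higher (2.99% of all genes), the proteases Adamts1, Adamts5, Adamts4 and Adamts12, and 6 were lower (4.54% of all genes), namely Mmp3, Mmp19, Adamts2, Adamts6, Timp1 and Timp2. The proteases were thus called in both directions with the block, and the inhibitors in 1 direction. The 2 lines did not overlap for 6 of the 24 tested members, all lower in the libraries labelled Nf2 KO, where 7.52% of all tested genes were apart in that direction and 15.1% in either, and for 0 members in the opposite direction (7.6% of all tested genes). The median log2 fold change was -0.12 over the tested members, -0.12 over 9 Mmp, 0.05 over 12 Adamts and Adamtsl and -0.61 over 3 Timp genes, and -0.01 over all tested genes. These counts cover only members past the level filter, and Mmp3 passed it only through the control libraries. Adamts12, counted as higher, passed it only through the libraries labelled Nf2 KO.

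**Figure D1:**
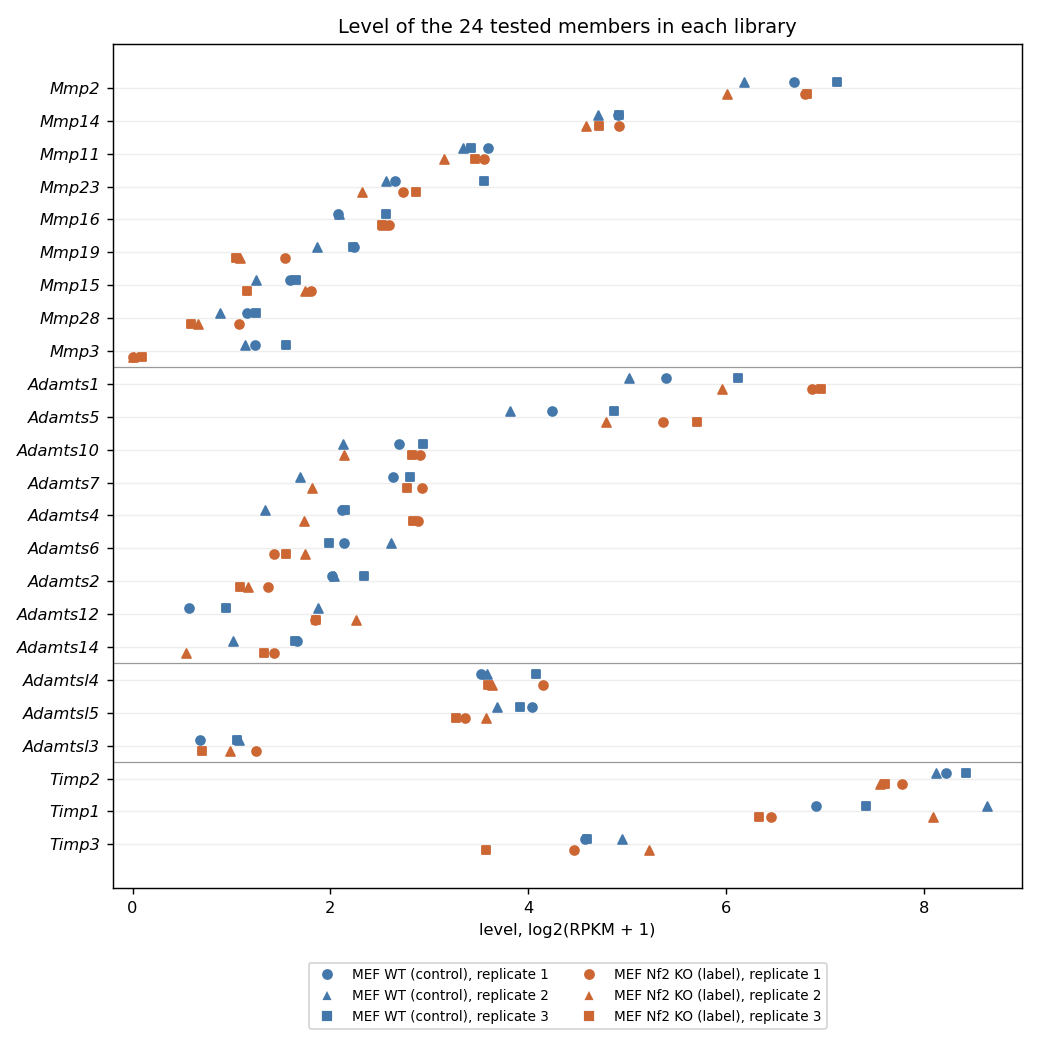
Level of each tested member, as log2(RPKM + 1) on the x axis, in the 3 control libraries (blue) and the 3 libraries labelled Nf2 KO (orange), with circles, triangles and squares for replicates 1, 2 and 3 and horizontal lines between Mmp, Adamts, Adamtsl and Timp genes. Mmp3 is near 0 in the libraries labelled Nf2 KO, and Timp2, Timp1 and Mmp2 have the highest levels in the control, while Adamts1 lies above Mmp2 and Timp1 in replicates 1 and 3 of the line labelled Nf2 KO.

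The promoters of Mmp3, Mmp10, Mmp13 and Adamts2 are shown because the first of these genes and Adamts2 are the members called without the block, while Mmp10 and Mmp13 are a stromelysin and a collagenase of the same chromosome 9 cluster as Mmp3 whose promoters also hold the AP-1 letters. They are the 250 bases before the RefSeq start in GRCm38.p6, read 5′ to 3′ along the gene, and capitals mark the AP-1 motif TGANTCA, searched on both strands.
Mmp3 promoter, chr9:7445572-7445821 (+): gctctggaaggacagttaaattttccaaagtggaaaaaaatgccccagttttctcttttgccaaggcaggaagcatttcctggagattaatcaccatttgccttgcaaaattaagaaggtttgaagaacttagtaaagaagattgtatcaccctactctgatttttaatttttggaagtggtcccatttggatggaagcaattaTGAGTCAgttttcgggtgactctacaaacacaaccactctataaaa
Mmp10 promoter, chr9:7502092-7502341 (+): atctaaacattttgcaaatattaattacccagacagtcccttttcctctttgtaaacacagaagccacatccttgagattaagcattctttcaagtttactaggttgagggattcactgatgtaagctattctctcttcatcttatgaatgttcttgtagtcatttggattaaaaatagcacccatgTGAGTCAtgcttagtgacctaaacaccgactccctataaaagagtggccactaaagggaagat
Mmp13 promoter, chr9:7272264-7272513 (+): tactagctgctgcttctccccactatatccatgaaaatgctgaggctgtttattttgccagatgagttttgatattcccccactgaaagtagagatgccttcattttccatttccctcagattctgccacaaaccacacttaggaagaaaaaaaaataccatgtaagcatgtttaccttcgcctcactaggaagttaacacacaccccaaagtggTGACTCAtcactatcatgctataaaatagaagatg
Adamts2 promoter, chr11:50601835-50602084 (+): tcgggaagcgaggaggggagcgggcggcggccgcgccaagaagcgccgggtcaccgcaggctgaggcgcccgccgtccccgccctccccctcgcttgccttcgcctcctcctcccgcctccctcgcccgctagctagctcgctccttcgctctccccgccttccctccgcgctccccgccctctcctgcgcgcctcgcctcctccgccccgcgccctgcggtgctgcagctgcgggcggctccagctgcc

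The AP-1 motif was found in the promoter of 5 of the 32 members with an entry, Mmp3, Mmp10, Mmp13, Mmp1b and 1 of the 2 starts of Mmp12, and in 6.75% of the 32851 mouse promoters searched alike. In Mmp3 it began 46 bases before the start, in Mmp10 63 bases before and in Mmp13 35 bases before. These genes all lie in the same cluster on chromosome 9, and the only tested member among them was Mmp3. Only 16 of the tested members had an entry, so Adamts4, Adamts5, Adamts6, Mmp19 and Mmp2, among others, were not searched. The TEAD motif GGAATG, which binds the partners of YAP and TAZ, was found in 12.6% of all promoters and in those of Timp1 and Adamts13. Adamts2 has neither set of letters in this window. A match of letters is a description of the sequence and does not show that a factor was bound.

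Mmp3 (stromelysin-1, which cleaves proteoglycans, fibronectin and other proenzymes) was at 1.36, 1.20 and 1.94 RPKM in control replicates 1, 2 and 3 and at 0, 0 and 0.0684 RPKM in the libraries labelled Nf2 KO. Every control library was above every library labelled Nf2 KO, and 288 reads in the control stood against 9 in the other line, all of them in replicate 3. A count of 0 still allowed up to 0.0922 RPKM in replicate 1 and 0.0864 RPKM in replicate 2, taken as 3 reads. The mean fell from 1.50 ± 0.389 to 0.0228 ± 0.0395 RPKM (SD, n = 3), a log2 fold change of -1.28 after adding 1 to each RPKM, a step that shrinks differences of low genes (SE 0.14, limma adjusted p = 0.0217, and 0.0051 with the block). That value was -3.72 with a pseudocount of 0.1 and -5.97 by voom, limma's method for counts, on reads recovered from the RPKM steps. Without the block the call was lost in 6 of 9 fits that left out a replicate number or a library, with adjusted p of 0.512 without replicate 1, 0.391 without replicate 3, 0.107 without control replicate 1, 0.0861 without control replicate 3, 0.130 without replicate 1 of the line labelled Nf2 KO and 0.109 without its replicate 3. Over the 9 fits the log2 fold change stayed between -1.37 and -1.16, and without replicate 1 or replicate 3 the fit called 0 of all 11067 genes. With the block it held without each replicate number (adjusted p of 0.0219, 0.0121 and 0.0134). The gene shares 14.6% of its 31-base stretches with other genes, mostly Mmp10, so single reads could be placed in either.

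Mmp3 was the single tested gene among 7 Mmp genes of its cluster on chromosome 9 (7272514 to 7581885, GRCm38), which also holds Mmp13, Mmp12, Mmp1b, Mmp10, Mmp8 and Mmp27. Reads over the cluster summed to 37, 54 and 256 in the control libraries and to 0, 2 and 44 in the libraries labelled Nf2 KO. Without Mmp3 they were 4, 13 and 42 against 0, 2 and 35, so that most cluster reads of the control were reads of Mmp3. Mmp13, the main rodent interstitial collagenase, was at 0.0834, 0.118 and 0.0916 RPKM in the control and at 0, 0.0194 and 0.0768 RPKM in the other line, on 15 reads at most per library. Mmp10 (stromelysin-2) was at 0.0431, 0.153 and 0.00948 RPKM against 0, 0.0301 and 0 RPKM, which overlapped.

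The gelatinases digest denatured and basement membrane collagen. Mmp2, which made up 59.0% to 69.3% of the summed Mmp RPKM in every library, was at 102, 71.7 and 139 RPKM in the control and at 110, 63.5 and 112 RPKM in the libraries labelled Nf2 KO, overlapping, with a log2 fold change of -0.12 (SE 0.31). Mmp9 was under the filter, at 0.126, 0.328 and 0.175 RPKM in the control and 0.0312, 0.0293 and 0.0735 RPKM in the other line. For Mmp9 the lines did not overlap, and the two-sided exact permutation test gave p = 0.1, the smallest value that 3 against 3 libraries allow. Among the tested membrane-type MMPs, which work on the cell surface, Mmp14 was at 29.1, 25.2 and 29.4 RPKM and at 29.3, 23.1 and 25.3 RPKM, a log2 fold change of -0.11 (SE 0.12). Mmp14, Mmp15 (0.07) and Mmp16 (0.31) did not pass the test with or without the block. The main activator of Mmp2 and Mmp2 itself were therefore the most abundant MMP transcripts in both lines and neither was called different.

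Mmp19, an MMP that cleaves basement membrane proteins, was at 3.72, 2.63 and 3.70 RPKM in the control and at 1.91, 1.13 and 1.06 RPKM in the libraries labelled Nf2 KO. All control libraries were higher, and the ratio within replicate numbers 1, 2 and 3 was 0.515, 0.427 and 0.286. The log2 fold change was -0.89 (SE 0.18), which did not pass without the block (limma adjusted p = 0.102) and did with it (0.0146, and at most 0.0402 with any replicate number left out), and without the block it passed once replicate 2 was left out (0.0354). Voom on recovered reads gave -1.46. Exons of Tmem198b on the opposite strand cover 22.3% of its exon bases, and the strand setting of the counting is not given in the sources used here. The remaining tested MMPs, Mmp11 (-0.06), Mmp23 (-0.29) and Mmp28 (-0.32), did not pass either fit.

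**Figure D2:**
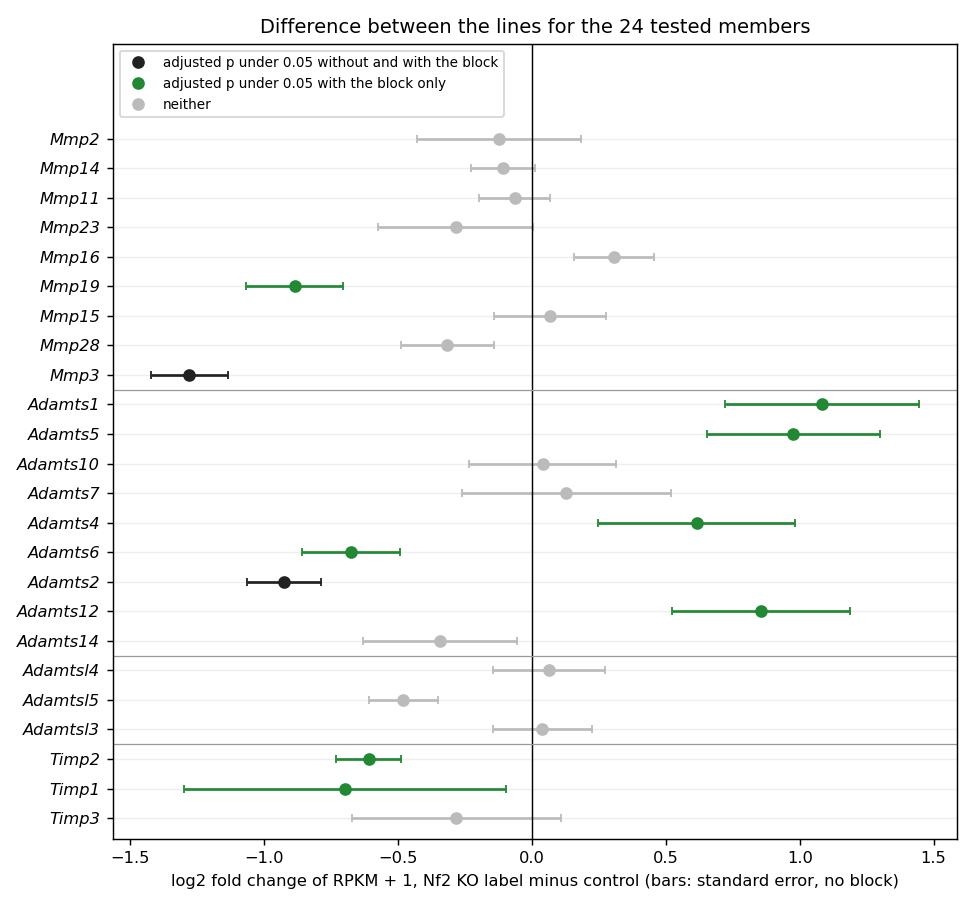
Log2 fold change of RPKM + 1, libraries labelled Nf2 KO minus control, for the tested members, with the standard error of the fit without a block as bars, 3 libraries a line. Black points mark Mmp3 and Adamts2, green points the members called only with the block, and grey points the others.

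Among the ADAMTS proteases, the group that cleaves aggrecan, versican and brevican had 3 tested members, Adamts1, Adamts4 and Adamts5, and all 3 were higher in the libraries labelled Nf2 KO with the block (2.99% of all tested genes) and not called without it (0.479% of all tested genes). Adamts1, the most abundant ADAMTS transcript, was at 41.1, 31.5 and 68.9 RPKM in the control and at 116, 61.1 and 124 RPKM in the other line. Replicate 2 was the lowest of each line, and its library labelled Nf2 KO lay below control replicate 3, so the lines overlapped. Within replicate numbers 1, 2 and 3 the value was 2.82, 1.94 and 1.80 times the control, and the log2 fold change of 1.08 had an SE of 0.36 without the block and 0.13 with it (limma adjusted p of 0.340 and 0.0139). Without replicate 1, 2 or 3 the blocked adjusted p was 0.0145, 0.0421 or 0.0211.

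Adamts5, the main aggrecanase of mouse cartilage, was at 18.0, 13.1 and 28.2 RPKM in the control and at 40.2, 26.7 and 51.2 RPKM in the libraries labelled Nf2 KO. The order of the replicates was that of Adamts1, with replicate 2 lowest in each line and an overlap between the library labelled Nf2 KO of replicate 2 and control replicate 3. The ratios were 2.24, 2.03 and 1.81, and the log2 fold change of 0.98 had an SE of 0.32 without the block and 0.08 with it (limma adjusted p of 0.333 and 0.00473, and at most 0.0171 with a replicate number left out). Both genes lie on the minus strand of chromosome 16, Adamts1 at 85793827 to 85803113 and Adamts5 at 85856173 to 85901828 (GRCm38), with a gap of 53059 bases that holds 0 protein-coding genes. The level of Adamts1 was 2.29, 2.39 and 2.44 times that of Adamts5 in the control and 2.88, 2.29 and 2.42 times in the other line. The 5 other tested genes within 1000000 bases had a median log2 fold change of -0.08, and 1 of the 5 was called with the block, against 7.53% of all tested genes. This gene, Jam2, was lower (-0.73, limma adjusted p = 0.0198 with the block) and passed the level filter only through the control libraries.

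Adamts4, an aggrecanase of the same group, was at 3.35, 1.53 and 3.44 RPKM in the control and at 6.40, 2.32 and 6.17 RPKM in the libraries labelled Nf2 KO. The lines overlapped only through replicate 2, whose library labelled Nf2 KO was below control replicates 1 and 3. The ratios were 1.91, 1.51 and 1.79 and the log2 fold change was 0.62 (SE 0.37, limma adjusted p = 0.735, and 0.0214 with the block), with the blocked call lost without replicate 1 (0.0831) or replicate 3 (0.0789) and a call without the block once replicate 2 was left out (0.0113). Leaving out control replicate 2 alone gave 0.35 and leaving out replicate 2 of the line labelled Nf2 KO alone gave 0.99. The other proteoglycan-cleaving members, Adamts8, Adamts9, Adamts15 and Adamts20, were under the filter.

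Adamts12, which cleaves cartilage oligomeric matrix protein (COMP), was at 0.483, 2.67 and 0.932 RPKM in the control and at 2.58, 3.79 and 2.63 RPKM in the libraries labelled Nf2 KO. Replicate 2 was the highest in each line, and control replicate 2 overlapped with the other line. Among the control libraries only replicate 2 reached 1 RPKM, so Adamts12 passed the level filter only through the libraries labelled Nf2 KO. The log2 fold change was 0.85 (SE 0.33, limma adjusted p = 0.446, and 0.0485 with the block), and the blocked call was lost without replicate 1 (0.127) or replicate 3 (0.170). Without the block it passed once replicate 2 (0.0135) or control replicate 2 alone (0.0477) was left out. Its log2 fold change was 1.36 with a pseudocount of 0.1 and 1.44 by voom on recovered reads. Adamts7, which also cleaves COMP, had a log2 fold change of 0.13 and did not pass.

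Adamts2, which removes the amino-terminal propeptide of fibrillar procollagens, was at 3.04, 3.11 and 4.08 RPKM in the control and at 1.58, 1.25 and 1.12 RPKM in the libraries labelled Nf2 KO. All control libraries were above all of the other line, and the ratio was 0.520, 0.402 and 0.274 in replicates 1, 2 and 3. The log2 fold change was -0.93 (SE 0.14, limma adjusted p = 0.0399, and 0.0173 with the block), and -1.50 by voom on recovered reads. Without the block the call was lost in 8 of 9 fits that left out a replicate number or a library (adjusted p up to 0.576) and held only without replicate 2 (0.0241). In these fits the log2 fold change stayed between -1.07 and -0.76, and the fit with the highest p, without replicate 3, called 0 of all 11067 genes. With the block it was lost without replicate 2 (0.0600) and held without replicate 1 (0.0317) or 3 (0.0307). Adamts14, the other tested procollagen N-proteinase, had a log2 fold change of -0.34 and did not pass (limma adjusted p = 0.0791 with the block), with values of -0.56 without control replicate 2 and -0.07 without replicate 2 of the line labelled Nf2 KO.

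Adamts6, a protease related to Adamts10 that acts on fibrillin-rich matrix, was at 3.41, 5.11 and 2.97 RPKM in the control and at 1.69, 2.34 and 1.93 RPKM in the libraries labelled Nf2 KO. No library of one line reached the range of the other, and the ratios were 0.495, 0.458 and 0.649. The log2 fold change was -0.68 (SE 0.18, limma adjusted p = 0.217, and 0.0198 with the block), and the blocked call was lost without replicate 1 (0.0879) or replicate 2 (0.0663). Adamts10 itself had a log2 fold change of 0.04. Of the ADAMTS-like proteins, Adamtsl3 (0.04) and Adamtsl4 (0.06) did not pass, and Adamtsl5 was at 15.4, 11.9 and 14.1 RPKM in the control and 9.27, 10.9 and 8.67 RPKM in the other line. The lines did not overlap for Adamtsl5, whose log2 fold change of -0.48 missed the threshold (limma adjusted p = 0.215, and 0.0859 with the block) and passed it once replicate 2 was left out (0.0148, and 0.0221 with the block).

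**Figure D3:**
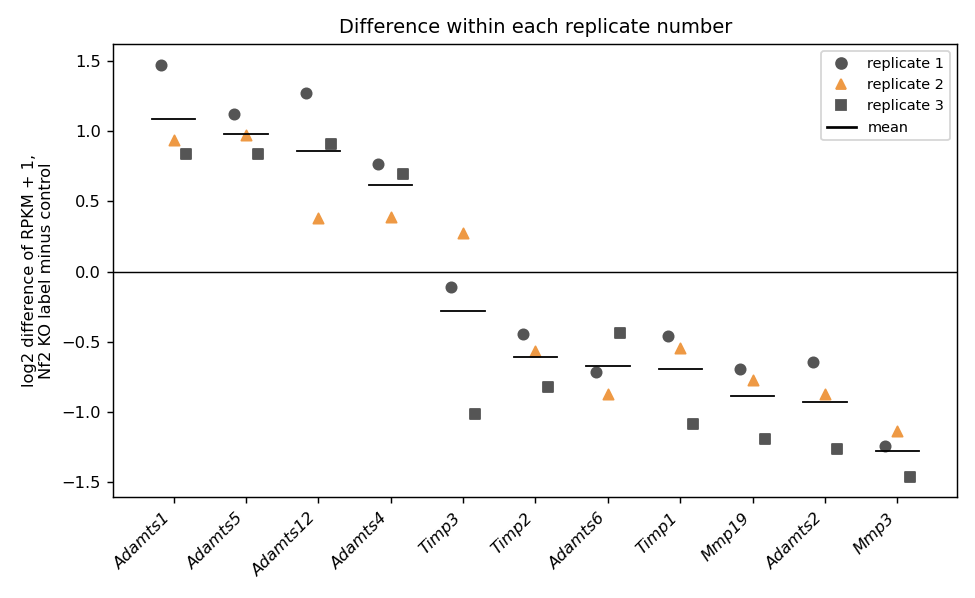
Difference of log2(RPKM + 1) between the library labelled Nf2 KO and the control library of the same replicate number, for the members called with or without the block and for Timp3, with the mean as a line. Replicate 2 is drawn in orange. The 3 differences share a sign for every gene shown except Timp3.

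The TIMP genes were among the most abundant members. Timp2, the inhibitor that also takes part in Mmp2 activation, was at 298, 278 and 344 RPKM in the control and at 219, 187 and 194 RPKM in the libraries labelled Nf2 KO. Each library labelled Nf2 KO was below each control library, at 0.734, 0.673 and 0.565 times the control of its number. The mean was 306 ± 33.5 against 200 ± 16.4 RPKM (SD, n = 3), a log2 fold change of -0.61 (SE 0.12, limma adjusted p = 0.0901, and 0.0267 with the block), and the blocked call was lost without replicate 2 (0.117) or replicate 3 (0.0915).

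Timp1, an inhibitor that growth factors and cytokines induce in fibroblasts, was at 120, 399 and 170 RPKM in the control and at 86.7, 273 and 79.6 RPKM in the libraries labelled Nf2 KO. Replicate 2 was far above the others in both lines, so the lines overlapped, while within each replicate number the library labelled Nf2 KO was lower, at 0.724, 0.685 and 0.468 times the control. The log2 fold change of -0.70 had an SE of 0.60 without the block and 0.14 with it (limma adjusted p of 0.886 and 0.0436), and the blocked call was lost without any of the 3 replicate numbers (0.0874, 0.106 and 0.0815). Single libraries moved the log2 fold change of Timp1 widely, to -0.20 without control replicate 2, -1.07 without control replicate 1, and -0.44, -1.27 and -0.38 without replicates 1, 2 and 3 of the line labelled Nf2 KO. Timp3, the matrix-bound inhibitor that also blocks ADAMTS enzymes, was at 22.9, 29.9 and 23.1 RPKM in the control and at 21.1, 36.4 and 11.0 RPKM in the other line. The libraries labelled Nf2 KO lay on both sides of the control, and Timp3 did not pass (log2 fold change -0.28, SE 0.39, limma adjusted p = 0.951, and 0.538 with the block). Timp3 shares 21.3% of its exon bases with exons of Syn3 on the opposite strand.

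Summed over genes, the 20 Mmp genes reached 159, 121 and 203 RPKM in the control and 167, 107 and 162 RPKM in the libraries labelled Nf2 KO, which overlapped. The 18 Adamts genes summed to 82.5, 63.8 and 124 RPKM against 183, 104 and 201 RPKM, higher in the library labelled Nf2 KO of every replicate number and overlapping through replicate 2. Adamts1 made up 49.4% to 55.7% of that sum in the control and 58.8% to 63.2% in the other line. The 3 Timp genes summed to 440, 707 and 537 RPKM against 326, 497 and 285 RPKM, lower in every replicate number and overlapping, with Timp1 at 56.4% and 55.0% of the sum in replicate 2 and at 26.5% to 31.7% elsewhere. The ratio of the Mmp sum to the Timp sum was 0.362, 0.171 and 0.379 in the control and 0.510, 0.216 and 0.567 in the libraries labelled Nf2 KO. It was higher within each replicate number, while the means of 0.304 ± 0.115 and 0.431 ± 0.188 (SD, n = 3) differed by 0.127, less than the pooled SD of 0.156. The difference was 0.0607 without control replicate 2, 0.235 without replicate 2 of the line labelled Nf2 KO and 0.0590 without its replicate 3. These sums are descriptions of transcript levels with no test, and they hold no measure of protein or activity.

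**Figure D4:**
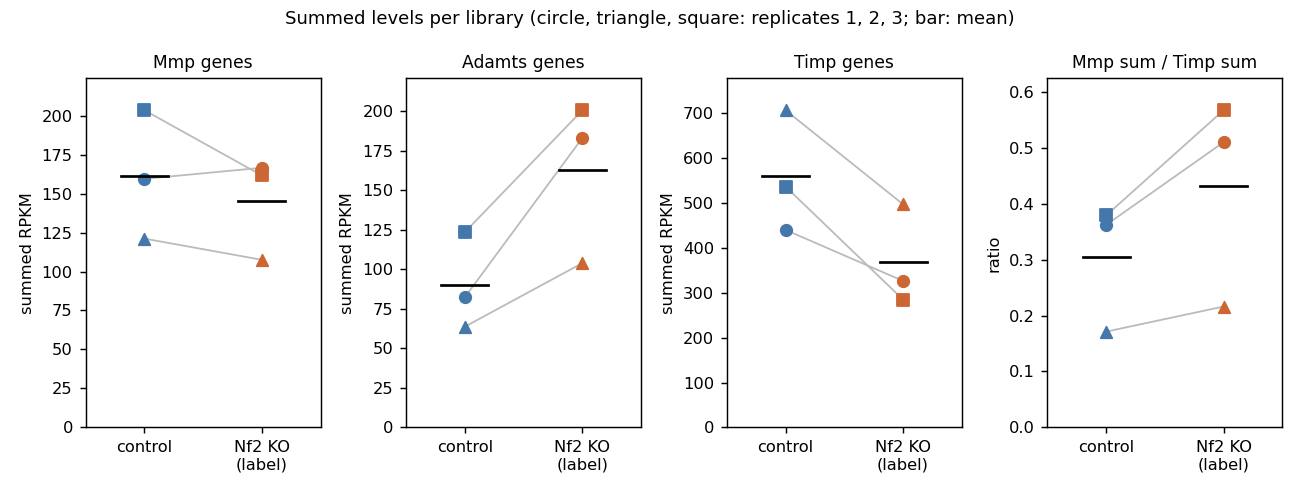
Summed RPKM of the Mmp, Adamts and Timp genes and the ratio of the Mmp to the Timp sum (y axes from 0) in each library, control in blue and labelled Nf2 KO in orange, with lines joining replicate numbers and bars at the means of 3 libraries. The Adamts sum is higher and the Timp sum lower in the library labelled Nf2 KO of each replicate number.

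Replicate 2 was often the lowest or highest library of each line, for the members as for all tested genes. It was the lowest of both lines for 11 of the 24 tested members (45.8%, and 39.5% of all tested genes), Adamts1, Adamts4, Adamts5, Mmp2, Mmp14 and Timp2 among them, and the highest of both lines for Adamts6, Adamts12, Timp1 and Timp3 (16.7%, and 23.2% of all tested genes). Without replicate 2 and without the block, 6 of the 24 members passed, 2 higher and 4 lower, in a fit that called 484 of all 11067 genes, and without control replicate 2 alone 2 passed, 1 higher and 1 lower, where 142 of all genes did. By limma without the block, 0 passed without replicate 1, without replicate 3 or without replicate 1 or 3 of either line alone (4 to 9 at an unadjusted p under 0.05), and 1 passed without replicate 2 of the line labelled Nf2 KO alone. These fits called few genes of any kind, 0 of all 11067 without replicate 1 or replicate 3, 10 to 18 without 1 such library and 92 without replicate 2 of the line labelled Nf2 KO, so the 0 is no result about the members.

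The other 22 members, 11 Mmp and 11 Adamts or Adamtsl genes, were under the filter. Their highest value was 0.328 RPKM, that of Mmp9 in control replicate 2, and 21 of them were below 0.2 RPKM in every library. At under 1 read in at least 3 libraries were 9 of them, and none was so in all. The lines did not overlap for 4 of the 22 (9.42% of all genes under the filter), with Mmp9, Mmp13 and Adamts8 lower in the libraries labelled Nf2 KO (5.34% of all such genes) and Adamtsl1 higher (4.08%). For Adamts8 this rests on a control value of 1.13e-05 RPKM, which is 0 reads, so the lines cannot be called apart for it. Adamtsl1 was at 0.0524, 0.0454 and 0.0627 RPKM in the control and 0.130, 0.0975 and 0.118 RPKM in the other line. The reads of Adamtsl1 were 9, 11 and 49 in the control and 30, 24 and 109.9 in the other line. The difference of Mmp13 rested on fewer, at most 15 in any library. The collagenases Mmp1b, Mmp8 and Mmp13 were all among the 22.

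Genes that regulate these proteases, the related membrane-anchored ADAM proteases and the matrix proteins they cut were taken from lists written by hand. The lists were chosen with earlier results of these data known. Of 12 tested regulators, 0 were called by limma without the block (1.06% of all tested genes), and 3 were at an unadjusted p under 0.05 (9.91% of all tested genes). With the block 1 was called, a share near the 7.53% of all tested genes. The gene was the hyaluronan receptor Cd44, which docks MMPs at the cell surface. Cd44 was at 44.8, 106 and 47.1 RPKM in the control and 25.5, 70.9 and 24.4 RPKM in the libraries labelled Nf2 KO, with replicate 2 highest in each line (log2 fold change -0.76, limma adjusted p of 0.785 and, with the block, 0.0105). The median over the regulators was -0.31, with 1 above 0 and 11 below. Reck, a membrane inhibitor of MMPs, was at 2.07, 1.26 and 2.45 RPKM and at 2.19, 1.14 and 1.68 RPKM and did not pass.

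Of 7 tested ADAM genes, 1 was called without the block and 3 with it, all lower in the libraries labelled Nf2 KO, where 1.06% and 7.53% of all tested genes were called (0.578% and 4.54% lower), and their median was -0.20. Adam8, the gene called without the block, and Adam12, called only with it, passed the level filter only through the control libraries. Adam8, a leukocyte and stromal ADAM protease, was at 2.55, 1.88 and 2.42 RPKM in the control and 0.894, 0.715 and 0.596 RPKM in the other line, with no overlap (log2 fold change -0.92, limma adjusted p = 0.0390, and 0.00849 with the block). Adam19 was at 16.6, 24.0 and 22.5 RPKM against 11.7, 10.6 and 13.6 RPKM, also with no overlap (-0.76, adjusted p of 0.119 and 0.0304). Adam12 was at 1.74, 4.29 and 2.01 RPKM against 0.680, 1.97 and 0.902 RPKM, lower in each replicate number and overlapping through replicate 2 (-0.73, adjusted p of 0.520 and 0.00907). By limma without the block, 0 ADAM genes passed without replicate 1, without replicate 3 or without any single library other than control replicate 2 (2 to 3 at an unadjusted p under 0.05), in fits that called 0 to 92 of all 11067 genes.

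Of 14 tested substrates, 2 were lower without the block and 4 with it (0.578% and 4.54% of all tested genes), with a median of -0.38, 1 above 0 and 13 below, where 5304 of all tested genes were above 0 and 5763 below. Dcn, 1 of the 2, passed the level filter only through the control libraries. Dcn, decorin, a small proteoglycan that binds collagen fibrils, was at 2.57, 1.60 and 4.01 RPKM in the control and 0.133, 0.0266 and 0.112 RPKM in the libraries labelled Nf2 KO (log2 fold change -1.72, limma adjusted p = 0.0348, and 0.00702 with the block). Fn1, fibronectin, was at 455, 477 and 491 RPKM against 307, 314 and 295 RPKM (-0.63, adjusted p of 0.0390 and 0.0158). The lines did not overlap for either gene. Col3a1, the chain of type III collagen, was at 82.0, 15.3 and 82.1 RPKM against 54.7, 6.95 and 29.8 RPKM, with replicate 2 lowest in both lines (-1.01, adjusted p of 0.890 and 0.0274). Tnc, tenascin C, was at 53.8, 121 and 26.9 RPKM against 36.3, 59.8 and 16.8 RPKM (-0.73, adjusted p of 0.884 and 0.0171). By limma without the block, 0 substrates passed without replicate 1, without replicate 3 or without any single library other than control replicate 2 (2 to 4 at an unadjusted p under 0.05), in fits that called 0 to 92 of all 11067 genes, and 1 passed without that library, where 142 of all genes did. The regulator, ADAM and substrate genes called with the block were all lower, and Dcn and Col3a1 are also among the fibroblast markers, of which Pdgfra was lower with and without the block and Thy1 with it.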

How the data were processed

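Both lines were sequenced as 3 libraries each by GENEWIZ. The authors deposited 1 table of RPKM values, a unit worked out from the values. The submitters' processing notes name mm10. The aligner, counter and strand setting are not given in the sources used here. With exon lengths from GENCODE vM21, 86.0% to 87.6% of values of up to 20 reads lay within 0.1 read of a whole number, against 10.7% to 19.8% at other step sizes. That step gave the depths, and it makes genes of few reads less precise in the shallower libraries.

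The filter of 1 RPKM in 3 or more libraries left 11067 genes, which were tested on log2(RPKM + 1) with limma 3.58.1 in R 4.3.3 (lmFit and eBayes, trend and robust). P-values are two-sided and were adjusted over all of these genes by the Benjamini-Hochberg method, with calls at 0.05. The method was tested on simulated data in which same-numbered replicates shared their deviations. That test therefore does not show that the numbers pair the real samples. Same-numbered replicates deviated together from their line means (correlations over genes of 0.552, 0.819 and 0.516 for replicates 1, 2 and 3), so the numbers were taken to pair the samples, and the fit with the number as a block is given where it changes a call. Deviations cancel out within a line, so a shared shift of replicate 2 alone also raises the correlations of replicates 1 and 3. Unlike numbers were not correlated, so the pairing of replicates 1 and 3 was not tested. Summed ratios were not tested.

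Named are Nf2, every tested member, members under the filter by range (with values where the lines were apart and a library reached 0.2), and list genes past the threshold with or without the block. Mmp10, Mmp13, Adamtsl1, Reck and Jam2 were named after their values were seen. Members and lists were chosen with earlier results of these data known. The lists were written by hand. Alternatives were limma without trend and robust, 2 other scalings (quantile, median), a smaller pseudocount (0.1), filters of none and 5 RPKM, the block, the 2018 mark as a covariate, left-out libraries, and voom on recovered reads. Left-out replicates and median centring within the block, and single libraries left out of the summed ratio, were added after the data were seen. Promoters are RefSeq sequences, with 32 of the 46 members matched. Figures were drawn with matplotlib 3.10.9 in Python 3.11.15.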

Additional observations from a re-analysis of the deposited data

How the results depend on the processing

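Most calls depended on how replicates were treated. The counts of genes past the threshold without a block were 2 over all members, 1 over Mmp, 1 over Adamts and Adamtsl, 0 over Timp (1 at an unadjusted p under 0.05), 0 over regulators, 1 over ADAM genes and 2 over substrates. With the replicate number as a block (pairing) they were 10, 2, 6, 2, 1, 3 and 4, with fold changes that the balanced design keeps identical. With no filter on low values they were 0 over members (11 at an unadjusted p under 0.05), 0 over Mmp, 0 over Adamts and Adamtsl, 0 over ADAM genes and 0 over substrates, and with a filter of 5 RPKM 0, 0, 0, 0 and 1, where Mmp3 and Adamts2 were not tested. These fits called 9 of 26231 and 63 of 7117 genes in all, so the zeros are no result about the members. With the 2018 mark as a covariate 1 member, 0 Adamts or Adamtsl, 0 ADAM genes and 1 substrate were called (62 of all 11067 genes), and with quantile normalization 1 substrate. Leaving out a replicate number or a library gave 0 to 6 members, 0 to 2 Mmp, 0 to 4 Adamts and Adamtsl, 0 to 2 regulators, 0 to 2 ADAM genes and 0 to 2 substrates, and within the block 6 to 7 members without a replicate number, in fits that called 320 to 454 of all 11067 genes, against 833 with every library. The cause was not tested for the covariate, quantile and leave-out changes. The other scalings left the member counts unchanged and moved the median of all genes by at most 0.0149 log2.

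The difference in the Mmp to Timp ratio was 0.127 and became 0.407 without Timp2, since the sum it is divided by shrinks. Of the single-gene alternatives, 409 kept their side of the threshold, 13 passed it newly and 17 lost it. Among the named values, the sign changed under at least 1 alternative for Adamts7, Adamts10, Adamtsl3, Adamtsl4, Mmp2, Mmp11, Mmp15, Mmp23, Nf2 and Timp3, none of them called. Voom on recovered reads, whose model expects reads, called 2 members as well. Depth limits the 22 members under the filter mainly in replicates 1 and 2, where none held more than 30 reads. In replicate 3 they held up to 127 reads (Adamts9 in the control).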

Other observations

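Some genes of the lists that were under the filter for testing were picked after their values were seen. Adam33, a fibroblast ADAM protease, was at 0.592, 0.264 and 0.784 RPKM in the control libraries and at 0.0820, 0.00961 and 0.0457 RPKM in the libraries labelled Nf2 KO. Tfpi2, a Kunitz-type inhibitor of serine proteases that protects matrix, was at 0.128, 0.453 and 0.365 RPKM in the control and at 0 in all 3 libraries labelled Nf2 KO, where a count of 0 allows up to 0.0950, 0.0891 and 0.0235 RPKM. Fbn2, fibrillin 2, was at 0.354, 0.297 and 0.324 RPKM in the control and at 3.25, 0.440 and 1.35 RPKM in the other line, where replicate 2 was the lowest. The lines did not overlap for any of these genes, as for 9.42% of all genes under the filter. They did not overlap for Adam22 and Adam23 either, both lower in the libraries labelled Nf2 KO. All of these genes entered only the limma fit with no filter on low values, which called 9 of all 26231 genes and 0 genes of their lists.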
